A study of Mus musculus with 10 samples.

Results

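The granulocyte and monocyte genes described here are 32 genes named in a list: transcription factors of the myeloid lineage, proteins of neutrophil granules, receptors and their adaptors, and subunits of the phagocyte oxidase. A gene was taken from the probe set that carries it as the only gene symbol, and all 32 had exactly 1 such probe set, of 19938 genes measured in this way. They were followed in adult mouse haematopoietic stem cells (HSCs) with an induced Sox17 transgene and in HSCs of littermate controls. Sox17, a SOX-family factor, is required by fetal but not adult HSCs, and the study asked what it does when it is switched on in adult HSCs.

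The Sox17-transgenic group was doubly transgenic, with a (tetO)7CMVSox17-IRES-NucEGFP transgene and the activator allele Gt(ROSA)26Sortm1(rtTA*M2)Jae. The activator comes from the broadly active ROSA26 locus, so induction is not restricted to HSCs. The control group is labelled wild type, and both groups were 8 weeks old and drank doxycycline at 2 mg/ml for 5 days. Each group had 5 arrays, each from an aliquot of 10000 bone marrow cells, double-sorted as CD150+, CD48-, lineage-, Sca1+ and cKit+. The aliquots are called independent but are not tied to single animals, so each p-value reflects only how far these aliquots differ, and part of that may be technical.

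Granulocytes and monocytes arise from HSCs through committed progenitors. The ETS factor PU.1, the C/EBP factors and IRF8 set the myeloid programme. Granules are then filled in order: peroxidase and serine proteases at the early, promyelocyte stage, and lactoferrin, cathelicidin and gelatinase later, when the nucleus condenses. HSCs make few of these proteins, and low levels of the early genes in stem cells are often described as lineage priming.

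The values are log2 expression values after robust multi-array average (RMA) processing, and an array's level for 1 gene is not comparable with its level for another. Dim probe sets sit near the array's floor, where differences are compressed: 23 of the 32 genes had a mean below the median of the 23410 tested probe sets. The arrays fell into sets that did not follow the groups, with transgenic arrays 1, 2 and 3 and wild-type arrays 1 and 2 in set A and the other 5 arrays in set B. The sets were defined from the data, by the first principal component after removing each group's mean. Transgenic array 4 read as male, with Xist at 4.32 and Eif2s3y at 9.23, against 10.8 to 11.4 and 2.57 to 2.87 on the other 9 arrays. Sox17 itself read 4.25 to 4.51 in the transgenic group, against 4.02 to 4.30 in the wild-type group (limma, adjusted p = 0.855). Whether its probes match the transgene was not tested, so the direction of each difference rests on the labels. Of 9 HSC marker genes fixed in a list, 8 were measured, with means over all arrays of 5.95 (Fgd5) to 10.2 (Hlf and Mllt3). In that list 0 were called, and 5 were at an unadjusted limma p under 0.05, beside 6.59% of all tested probe sets. Their log2 differences were 1.08 for Procr, 0.33 for Mecom, 0.30 for Mllt3, 0.27 for Fgd5 and -0.47 for Kit (limma adjusted p of 0.247 to 0.702).

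No granulocyte or monocyte gene passed the threshold. Of the 32 genes, 0 were called by limma at an adjusted p under 0.05 (Benjamini-Hochberg over all 23410 probe sets), where 0.141% of all tested probe sets were called (0.12% higher and 0.0214% lower). At an unadjusted p under 0.05 there were 5, which is 15.6% against 6.59% of all tested probe sets (3.7% with higher and 2.9% with lower values). They were Spi1, Chil3, Lyz1 and Lyz2 with positive differences and Ncf4 with a negative one. With the array set as a block the count at an unadjusted limma p under 0.05 was 13, which is 40.6% against 8.34% of all tested probe sets, and again 0 were called. It was 13 within set B, where 5.75% of all tested probe sets reached that level, and 3 within set A, where 6.84% did. Among the 13 with the block, S100a8 differed by 1.53, S100a9 by 1.01, Mpo by 1.00, Ctsg by 0.82 and Prtn3 by 0.46 (limma adjusted p of 0.164 to 0.556). The array sets were defined from these same values, so p-values with the block or within a set can be too small. Several of these genes were also high on the same arrays, transgenic arrays 4 and 5. The shares with the sets are therefore a description and not a test of the list. The log2 difference, transgenic minus wild type, was positive for 26 of 32 genes, against 46.3% of all tested probe sets. Its median was 0.11 over the 32 genes and -0.011 over all tested probe sets. Without transgenic arrays 4 and 5, 20 of 32 differences were positive, with a median of 0.050.

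What stood out by array was transgenic array 5. It had the highest value of all 10 arrays for 12 of the 32 genes, while it was the highest array for 10.4% of all tested probe sets. It lay above all 5 wild-type arrays for 14 of the 32 genes, as did transgenic array 4, whereas these arrays did so for 15.7% and 13.9% of all tested probe sets. Transgenic arrays 1, 2 and 3 lay above all wild-type arrays for 8, 7 and 8 of the genes, against 18.8%, 14.1% and 13.9% of all tested probe sets. Transgenic arrays 1 to 5 lay below all wild-type arrays for 5, 3, 7, 5 and 4 of the genes. The shares of all tested probe sets below were 14.6%, 15.1%, 21.0%, 15.5% and 18.4%. The genes that were high on array 5 were mainly the early granule genes and the S100 pair, as the map of deviations by gene and array shows.

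**Figure D1:**
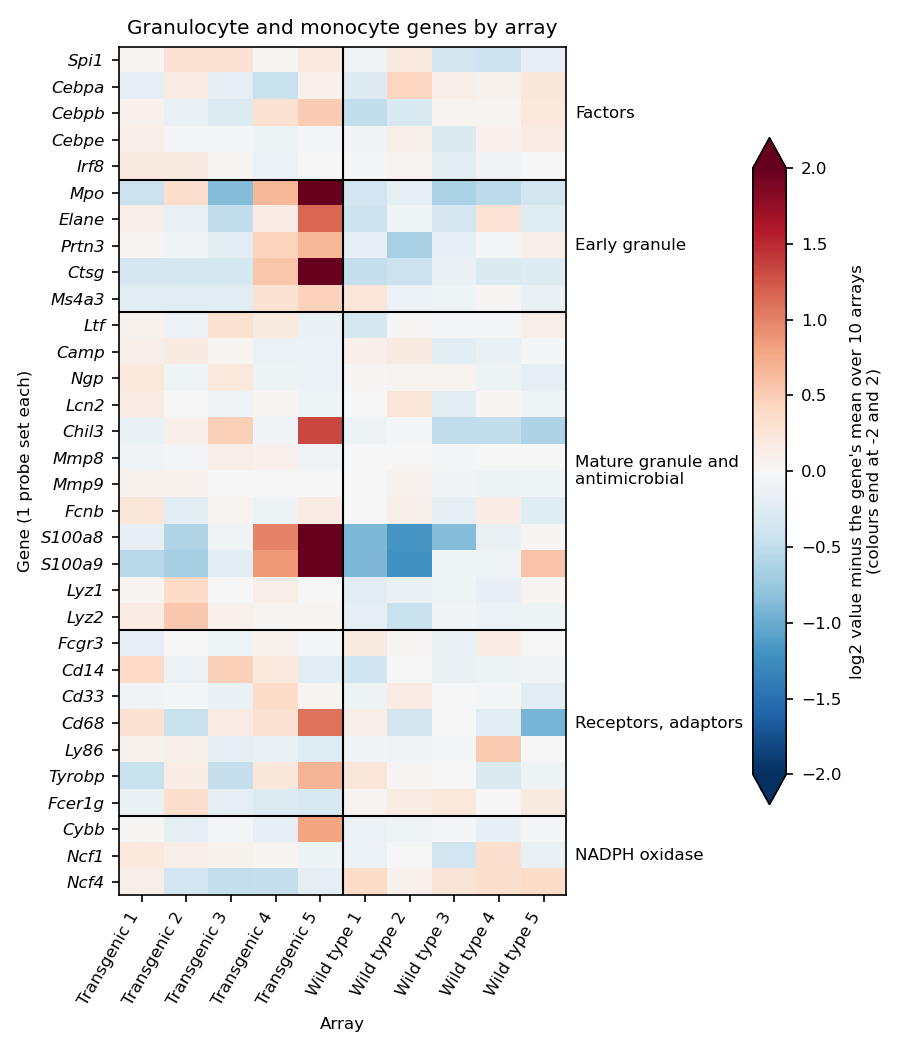
Rows are the 32 genes in 5 groups by role and columns are the 10 arrays; colour is the log2 value minus the gene's mean over the 10 arrays. The darkest red cells are Mpo, Ctsg, S100a8 and S100a9 on transgenic array 5, with weaker red on transgenic array 4, while Ltf, Camp, Ngp, Lcn2, Mmp8 and Mmp9 are pale throughout.

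None of the transcription factors passed the test. Spi1, which encodes PU.1, read 6.91, 7.17, 7.16, 6.90 and 7.07 on transgenic arrays 1 to 5, against 6.80, 7.08, 6.51, 6.46 and 6.72 on wild-type arrays 1 to 5. The transgenic arrays lay in a narrow upper band, and 1 wild-type array (array 2) lay within it. The difference was 0.33 log2 units (SE 0.12; 7.04 ± 0.13 against 6.71 ± 0.25, SD, n = 5 each), with an exact two-sided permutation p of 0.0397 and a limma adjusted p of 0.570. Set A alone gave 0.14 and set B alone 0.42.

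Cebpa, the C/EBP factor of granulocyte and monocyte progenitors, had the opposite sign, with 5.27, 5.61, 5.24, 4.99 and 5.52 on the transgenic arrays and 5.18, 5.86, 5.55, 5.50 and 5.66 on the wild-type arrays. The groups overlapped, and the difference of -0.23 (SE 0.15) did not pass (limma adjusted p = 0.897). Irf8, a factor of monocytes and dendritic cells, read 5.38, 5.38, 5.22, 5.09 and 5.21 on the transgenic arrays and 5.18, 5.25, 4.98, 5.13 and 5.20 on the wild-type arrays. Its difference of 0.11 (SE 0.08, limma adjusted p = 0.928) was about the size of the spread within each group. Cebpb, active in stress granulopoiesis and macrophages, differed by 0.19 (SE 0.17), and Cebpe, the factor of terminal granulocyte maturation, by -0.01 (SE 0.10). Of the 5 factors, 3 had positive differences and 0 were called.

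The early granule genes were high on transgenic array 5 and, less so, on transgenic array 4. All 5 had positive differences, 0 were called, and their median difference was 0.36. Array 5 held the highest value for all 5 of them and array 4 lay above all wild-type arrays for 4, the exception being Elane. Mpo, the myeloperoxidase of primary granules, read 5.84, 6.63, 5.41, 6.93 and 8.63 on the transgenic arrays, against 5.89, 6.07, 5.63, 5.74 and 5.91 on the wild-type arrays. Wild-type Mpo values thus lay close together, while the transgenic arrays lay on both sides of them, with array 3 the lowest of all 10. The group difference was 0.84 (SE 0.48; 6.69 ± 1.24 against 5.85 ± 0.17, SD, n = 5 each; limma adjusted p = 0.866).

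Ctsg, cathepsin G, a serine protease of the same granules, read 4.14, 4.11, 4.13, 5.03 and 6.53 on the transgenic arrays, against 4.003, 4.04, 4.34, 4.18 and 4.22 on the wild-type arrays. Transgenic arrays 1, 2 and 3 lay within the wild-type range and arrays 4 and 5 above it. The difference was 0.63 (SE 0.41, limma adjusted p = 0.897). Prtn3, proteinase 3, read 7.21, 7.13, 6.96, 7.62 and 7.84 on the transgenic arrays, against 6.98, 6.52, 7.00, 7.15 and 7.31 on the wild-type arrays. Here too arrays 4 and 5 were the only transgenic arrays above the wild-type range, and the difference was 0.36 (SE 0.19, limma adjusted p = 0.824). Elane, neutrophil elastase, ranged from 4.73 to 6.38 in the transgenic group, against 4.82 to 5.50 in the wild-type group. Ms4a3, a membrane protein of granulocyte and monocyte progenitors, ranged from 4.72 to 5.40 in transgenic and from 4.78 to 5.18 in wild-type samples.

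The share of array 5 in these differences was large. Without it, the log2 difference was 0.36 for Mpo, 0.20 for Ctsg, 0.24 for Prtn3, 0.07 for Elane and -0.07 for Ms4a3. Without transgenic arrays 4 and 5 it was 0.11 for Mpo and 0.11 for Prtn3, and -0.029, -0.0099 and -0.20 for Ctsg, Elane and Ms4a3. Within array set A, which holds neither array, the median over the 5 genes was 0.08, and within set B it was 0.76. Mpo differed by -0.019 within set A and by 2.02 within set B, Ctsg by 0.11 and 1.53, and neither was called within a set (limma adjusted p of 0.344 to 0.998).

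**Figure D2:**
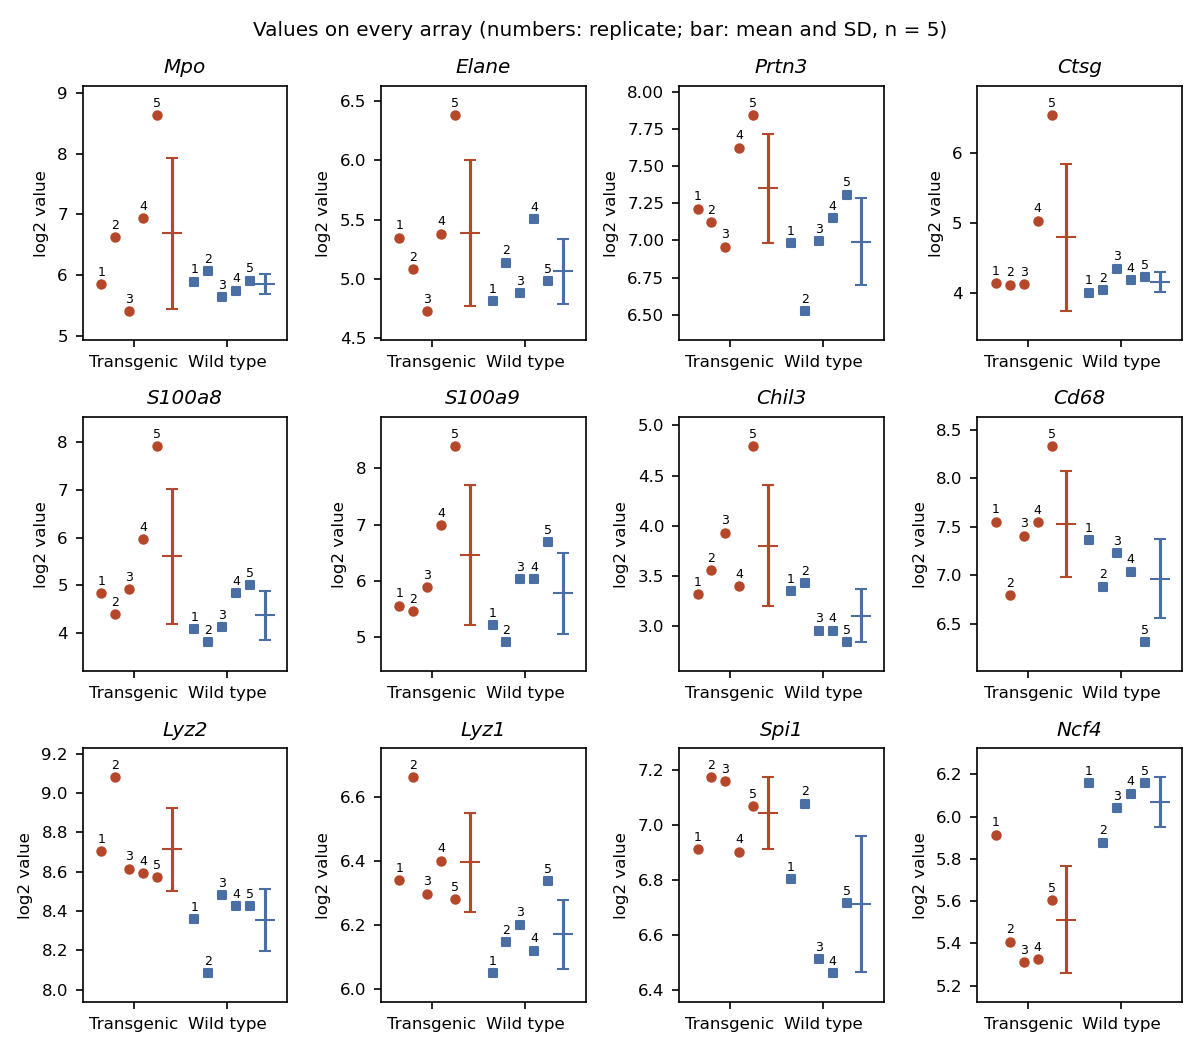
Each panel shows 1 gene: points are the log2 values of the 10 arrays, numbered by replicate, and the bar beside each group is its mean and SD (n = 5); axes differ between panels and do not start at 0. In the top row and for S100a8 and S100a9, transgenic array 5 lies above every other array and array 4 is mostly next; Lyz2 is the panel without overlap, and in Ncf4 all transgenic arrays but array 1 lie below the wild-type arrays.

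The upstream DNA of these genes is shown because the early granule genes and the S100 pair were high on the same arrays. RefSeq promoters (GRCm38.p6) were found for all 7 of them: Mpo, Elane, Prtn3, Ctsg, Ms4a3, S100a8 and S100a9. These genes were chosen with their values known. The 200 bases before the transcription start were searched on both strands for a PU.1 motif (AGGAAGT), a C/EBP motif (TTGCNNAA) and a SOX motif (CATTGT). Only the PU.1 letters occurred in these windows, so no matches overlap. The PU.1 letters were found in 3 of the 7 windows (Elane, Prtn3 and S100a8), against 6.34% of 32851 promoter windows of the same length. Elane and Prtn3 lie close together on chromosome 10, so their matches may not be independent. The C/EBP and SOX letters were in 0 of the 7, against 7.47% and 8.58% of all windows. In the sequences, written in the direction of transcription, capitals mark the PU.1 letters, or their reverse complement in S100a8. The match starts 84 bases before the start of Elane, 94 before that of Prtn3 and 172 before that of S100a8. The windows are chr11:87793584-87793783 (+) for Mpo, chr10:79886112-79886311 (+) for Elane, chr10:79879467-79879666 (+) for Prtn3 and chr3:90668871-90669070 (+) for S100a8. The Mpo window, shown as the gene with the widest spread among the early granule genes, held none of the 3 motifs. A match of letters is a description and not a measured binding site.
Mpo: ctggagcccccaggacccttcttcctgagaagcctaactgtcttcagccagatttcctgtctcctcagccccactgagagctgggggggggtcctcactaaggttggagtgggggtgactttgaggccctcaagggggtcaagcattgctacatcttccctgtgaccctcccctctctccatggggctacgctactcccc
Elane: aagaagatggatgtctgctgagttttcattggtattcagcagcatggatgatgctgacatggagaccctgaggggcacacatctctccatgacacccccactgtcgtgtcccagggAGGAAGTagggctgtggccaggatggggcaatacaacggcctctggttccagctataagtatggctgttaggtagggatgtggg
Prtn3: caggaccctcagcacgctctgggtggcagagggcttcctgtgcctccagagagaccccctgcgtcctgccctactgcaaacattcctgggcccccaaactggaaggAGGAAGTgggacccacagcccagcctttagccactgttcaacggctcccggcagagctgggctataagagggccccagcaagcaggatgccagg
S100a8: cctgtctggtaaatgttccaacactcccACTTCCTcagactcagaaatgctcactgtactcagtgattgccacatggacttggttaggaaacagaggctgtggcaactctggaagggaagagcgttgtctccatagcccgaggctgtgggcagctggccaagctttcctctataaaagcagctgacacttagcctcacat

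The mature granule and antimicrobial genes held both the widest and the flattest patterns of the list. All 12 had positive differences, with a median of 0.09, and 0 were called. S100a8, a subunit of calprotectin, read 4.83, 4.39, 4.92, 5.97 and 7.92 on the transgenic arrays, against 4.08, 3.81, 4.12, 4.83 and 5.00 on the wild-type arrays. It had the largest difference of the 32 genes, 1.24 (2.36-fold, SE 0.58; exact permutation p = 0.0714, limma adjusted p = 0.771). The groups overlapped, and transgenic arrays 4 and 5 stood above the wild-type range.

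S100a9, the other calprotectin subunit, read 5.56, 5.46, 5.89, 7.00 and 8.39 on the transgenic arrays, against 5.22, 4.92, 6.04, 6.03 and 6.69 on the wild-type arrays. Its difference was 0.68 (SE 0.55, limma adjusted p = 0.930). Both S100 genes also differed between the array sets among wild-type arrays, with lower values on arrays 1 and 2 of set A than on arrays 3, 4 and 5 of set B. Within set A the difference was 0.77 for S100a8 and 0.57 for S100a9, and within set B it was 2.29 and 1.44. Without transgenic array 5 it was 0.66 and 0.20, and without arrays 4 and 5 it was 0.34 and -0.14.

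Chil3, a chitinase-like protein of neutrophils and macrophages, read 3.32, 3.56, 3.93, 3.40 and 4.79 on the transgenic arrays, against 3.35, 3.43, 2.96, 2.96 and 2.84 on the wild-type arrays. The difference was 0.69 (SE 0.26; exact permutation p = 0.0397, limma adjusted p = 0.580). All but transgenic array 5 read below 4.08, the 20th percentile of all values, so this difference lies near the floor.

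The lysozymes followed another pattern, with transgenic array 2 highest instead of array 5. Lyz2, the lysozyme of macrophages and neutrophils, read 8.70, 9.08, 8.62, 8.59 and 8.57 on the transgenic arrays, against 8.36, 8.09, 8.48, 8.42 and 8.43 on the wild-type arrays. All transgenic arrays lay above all wild-type arrays. It was the only 1 of the 32 genes whose groups did not overlap, where 1.47% of all tested probe sets did not overlap and 0.876% did so with the transgenic arrays higher and 0.594% with them lower. The difference was 0.36 (1.28-fold, SE 0.12; 8.71 ± 0.21 against 8.36 ± 0.16, SD, n = 5 each). Its limma adjusted p was 0.455, and the two-sided exact permutation p was 0.00794, the smallest that 5 against 5 arrays allow. Set A alone gave a difference of 0.58 and set B alone 0.14, and it was 0.44 without transgenic arrays 4 and 5 and 0.27 without transgenic array 2.

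Lyz1, a close paralog expressed mainly in Paneth cells of the gut, read 6.34, 6.66, 6.30, 6.40 and 6.28 on the transgenic arrays, against 6.05, 6.15, 6.20, 6.12 and 6.34 on the wild-type arrays. The difference was 0.23 (SE 0.09; exact permutation p = 0.0238, limma adjusted p = 0.690), and the highest wild-type array lay within the transgenic range. Transgenic array 2 was highest for both genes. Whether probes of one lysozyme also bind RNA of the other was not tested.

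The other 7 mature granule genes, left after those described above, had smaller differences. They were set apart with their values known, so their small differences follow in part from that choice. Lactoferrin (Ltf), cathelicidin (Camp), neutrophilic granule protein (Ngp), lipocalin 2 (Lcn2), collagenase (Mmp8), gelatinase (Mmp9) and ficolin B (Fcnb) read 3.30 to 5.59 over all 10 arrays. Their means lay at percentiles 9.60 to 41.7 of the tested probe sets. Each ranged over 0.17 to 0.66 log2 units across the 10 arrays, where the median probe set ranged over 0.61. Their differences were 0.01 to 0.11, with the smallest limma p at 0.343. On transgenic array 5, Ltf read 3.74, Camp 4.73 and Ngp 3.63, within the wild-type ranges of 3.52 to 3.99, 4.62 to 5.03 and 3.57 to 3.80. Lcn2 and Mmp9 were also within their wild-type ranges there. Fcnb read 5.51, just above its highest wild-type value of 5.50, and Mmp8 read 3.305, just below its lowest of 3.330. Ltf was above its wild-type range on transgenic arrays 3 (4.18) and 4 (4.05). Values in this lower part of the range cannot show whether these RNAs were absent or below what the array resolves.

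**Figure D3:**
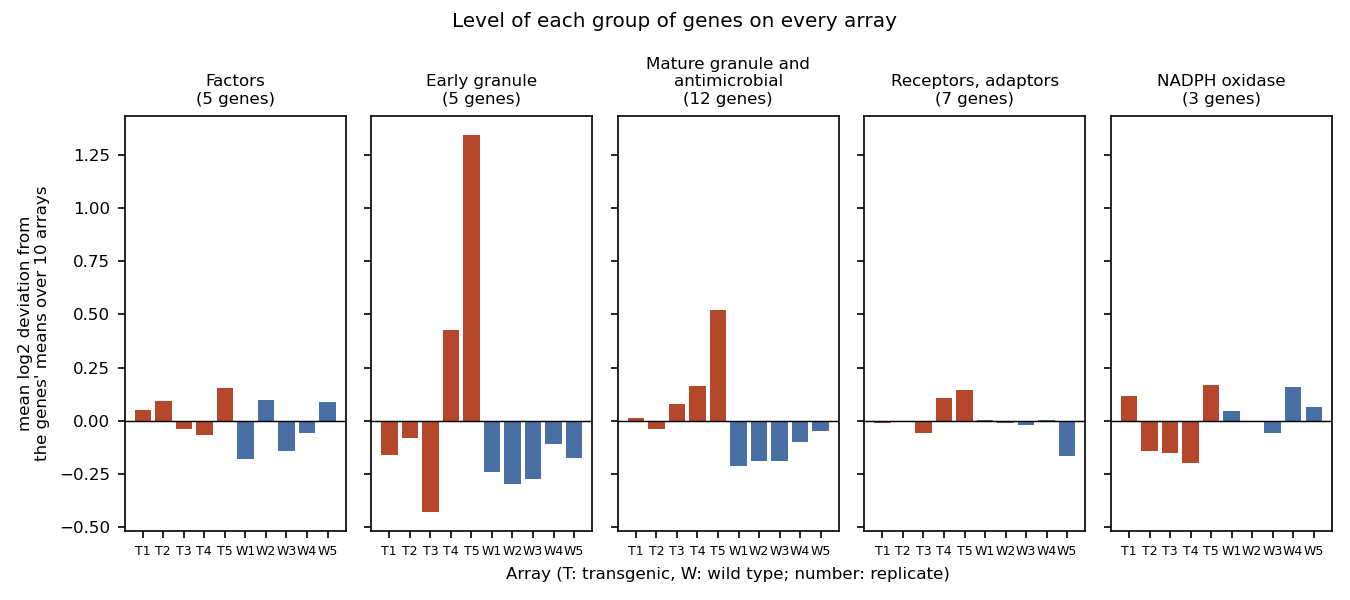
Bars give, for each array, the mean over the genes of a group of the log2 value minus the gene's mean over 10 arrays; red bars are the 5 transgenic and blue bars the 5 wild-type arrays, and all panels share 1 axis. The early granule genes reach 1.34 on transgenic array 5 and 0.42 on array 4, whereas transgenic arrays 1 to 3 stand at -0.43 to -0.08; the mature granule group reaches 0.52 on array 5.

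Averaged by array, the mature granule group stood at -0.04 to 0.52 in transgenic and at -0.21 to -0.05 in wild-type samples, relative to each gene's mean over all arrays. By the median over the 12 genes the groups overlapped, at -0.02 to 0.06 and -0.10 to 0.02. The factors overlapped, at -0.07 to 0.15 and -0.18 to 0.10. For the early granule genes the range of the means was -0.43 to 1.34 in transgenic and -0.30 to -0.11 in wild-type samples.

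Receptors and adaptors were mixed, with 4 positive and 3 negative differences among 7 genes, a median of 0.06 and 0 called. Cd68, an endosomal glycoprotein of macrophages, read 7.55, 6.79, 7.41, 7.55 and 8.33 on the transgenic arrays, against 7.36, 6.88, 7.23, 7.04 and 6.31 on the wild-type arrays. The extremes were transgenic array 5 at the top and wild-type array 5 at the bottom, and the difference was 0.56 (SE 0.27; exact permutation p = 0.103, limma adjusted p = 0.777). Cd14, the co-receptor for lipopolysaccharide, read 5.18, 4.67, 5.28, 5.00 and 4.57 on the transgenic arrays, against 4.40, 4.79, 4.64, 4.69 and 4.71 on the wild-type arrays. Transgenic arrays 1, 3 and 4 were above the wild-type range and array 5 was not, and the difference was 0.30 (SE 0.14, limma adjusted p = 0.788).

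Fcer1g, the common gamma chain of Fc receptors, had the opposite sign, with 6.91, 7.37, 6.85, 6.77 and 6.74 on the transgenic arrays and 7.10, 7.20, 7.25, 7.04 and 7.22 on the wild-type arrays. All transgenic arrays but array 2 lay below the wild-type range. The difference was -0.23 (SE 0.12, limma adjusted p = 0.809), and without transgenic array 2 it was -0.35 (adjusted p = 0.208). Tyrobp, the adaptor DAP12 of myeloid and NK cell receptors, ranged from 7.07 to 8.22 in the transgenic group, against 7.24 to 7.78 in the wild-type group, with array 5 at the top again. The Fc receptor Fcgr3, the sialic acid receptor Cd33 and Ly86, the partner protein of a Toll-like receptor homologue, differed by -0.09, 0.07 and -0.15. Fcgr3 is used to define granulocyte and monocyte progenitors, and it ranged from 4.60 to 4.84 in the transgenic group, against 4.64 to 4.95 in the wild-type group.

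Among the oxidase subunits, Ncf4 had the smallest p of all 32 genes, with a negative difference. Ncf4, a cytosolic regulatory subunit of the phagocyte NADPH oxidase, read 5.91, 5.41, 5.31, 5.33 and 5.60 on the transgenic arrays, against 6.16, 5.88, 6.04, 6.11 and 6.16 on the wild-type arrays. All transgenic arrays but array 1 lay below all wild-type arrays, and array 1 lay just above the lowest of them. The difference was -0.56 (SE 0.12; 5.51 ± 0.25 against 6.07 ± 0.12, SD, n = 5 each), with a limma adjusted p of 0.150 and an exact two-sided permutation p of 0.0159. Without transgenic array 1 it passed the threshold, at -0.66 (limma adjusted p = 0.0436). It was -0.47 within set A, -0.64 within set B and -0.52 without transgenic arrays 4 and 5.

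The other oxidase genes had small positive differences. Ncf1, the organiser subunit, read 5.84, 5.76, 5.70, 5.68 and 5.53 on the transgenic arrays, against 5.51, 5.62, 5.24, 5.95 and 5.49 on the wild-type arrays (difference 0.14, SE 0.12, limma adjusted p = 0.937). Cybb, the membrane-bound catalytic subunit, read 4.21, 4.02, 4.15, 4.02 and 4.99 on the transgenic arrays, against 4.08, 4.10, 4.16, 4.03 and 4.16 on the wild-type arrays. Only transgenic array 5 stood apart, and without it the Cybb difference was -0.0057 in place of 0.17 (SE 0.17).

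**Figure D4:**
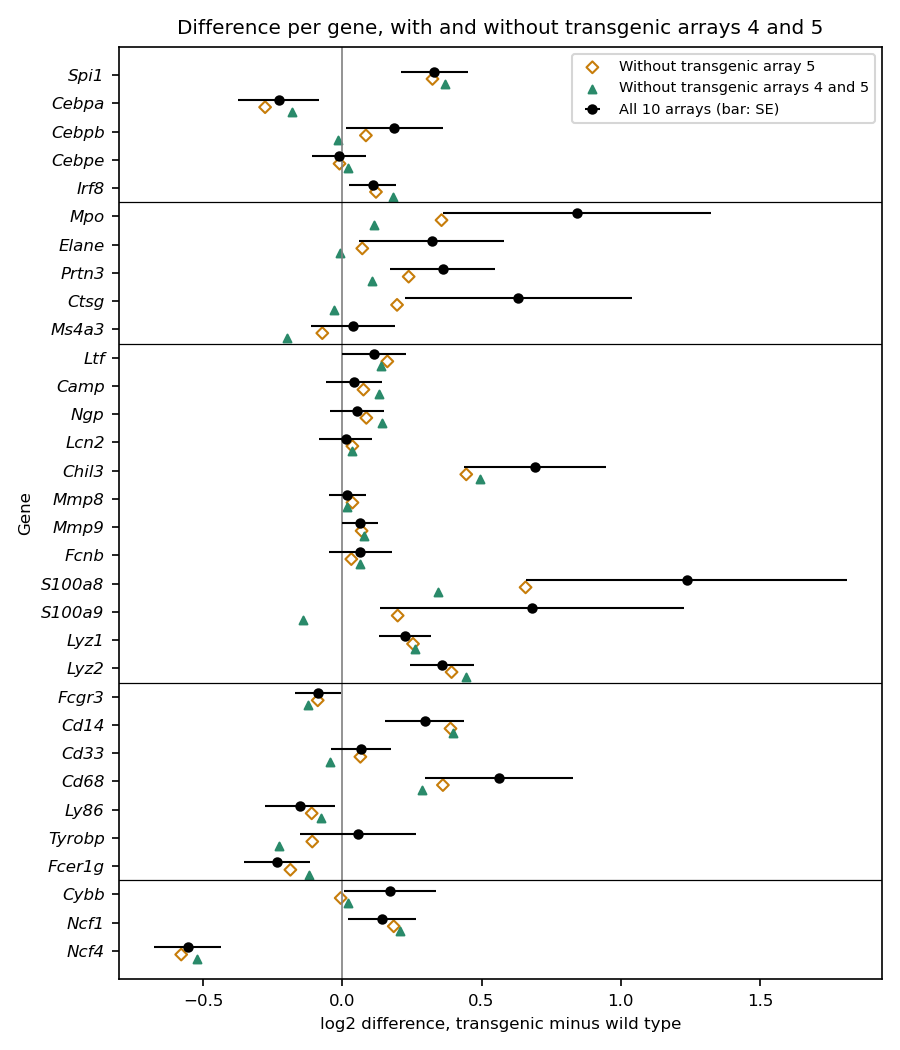
Black points are log2 differences, transgenic minus wild type, with SE bars, for the 32 genes from all 10 arrays; open diamonds leave out transgenic array 5 and triangles leave out transgenic arrays 4 and 5. S100a8 is farthest right at 1.24 and moves to 0.34 without both arrays, whereas Ncf4 (-0.56 and -0.52) and Lyz2 (0.36 and 0.44) stay near their places.

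Other genes of the myeloid programme came from a second list of 42 genes, of which 37 had a one-gene probe set. This list was drawn up with earlier results of these data known, so its count of called genes is not a test against the share of all probe sets. In it 3 genes passed the threshold, all higher on the transgenic arrays (limma, where 0.12% of all tested probe sets were called higher), and the median difference was 0.0082. These were the lysosomal protease cathepsin S (Ctss), Csf2rb, the common beta chain of the IL-3, IL-5 and GM-CSF receptors, and Gfi1, a repressor needed in neutrophil maturation. Ctss averaged 8.65 ± 0.16 in transgenic and 7.38 ± 0.25 in wild-type samples (SD, n = 5 in each group; log2 difference 1.28, limma adjusted p = 0.00326). Csf2rb averaged 7.77 ± 0.19 in transgenic and 6.51 ± 0.28 in wild-type samples (1.26, limma adjusted p = 0.00831). Gfi1 averaged 6.44 ± 0.19 in transgenic and 5.80 ± 0.07 in wild-type samples (0.64, limma adjusted p = 0.0335). The call of Gfi1 held in 6 of 21 alternative settings. It was lost without transgenic array 1, 4 or 5 or any single wild-type array (limma adjusted p of 0.0579 to 0.110), and with the arrays centred on their medians (adjusted p = 0.0501). The calls of Ctss and Csf2rb held in 19 of 21, all but the fits within a single array set. Csf2rb2, a paralog of Csf2rb, differed by 1.03 (SE 0.20) and did not pass (limma adjusted p = 0.110); binding of one paralog's RNA to the other's probes was not tested. The receptors of granulocyte and macrophage colony-stimulating factor, Csf3r and Csf1r, differed by 0.28 (SE 0.16) and 0.07 (SE 0.07).

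Markers of other cells were read on the same arrays, since a sorted aliquot can hold cells at the edge of the gate, and more cells of a type and more RNA per cell cannot be told apart in such a sample. The progenitor list (Cd34, Cd48, Flt3, Csf1r and Csf3r, 5 of 5 measured) had 2 genes at an unadjusted limma p under 0.05, beside 6.59% of all tested probe sets, and 0 called. Its summed level, in log2 units, was 10.1 to 10.7 in transgenic and 9.82 to 10.0 in wild-type samples. Flt3, a receptor of multipotent progenitors, read 8.58, 7.57, 8.57, 8.99 and 9.24 on the transgenic arrays, against 7.44, 7.13, 7.48, 6.14 and 7.10 on the wild-type arrays. It was highest on transgenic arrays 5 and 4, in the order of the early granule genes, but it was also above the wild-type range on arrays 1, 2 and 3, where 0, 1 and 0 of the 5 early granule genes were. Cd48, whose protein the sort excludes, read 7.00, 5.54, 6.14, 6.28 and 6.50 on the transgenic arrays, against 4.95, 5.76, 4.47, 4.54 and 5.05 on the wild-type arrays.

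The macrophage list (8 of 8 measured, 0 called, 0 at an unadjusted p under 0.05) had a summed level of 7.79 to 8.65 in transgenic and 7.79 to 8.20 in wild-type samples. Transgenic array 5 gave its maximum. There the complement gene C1qc read 6.62, the adhesion molecule Vcam1 6.57 and the mannose receptor Mrc1 5.30, against 4.81 to 5.80, 4.77 to 5.40 and 4.01 to 4.92 on the wild-type arrays. Adgre1 (F4/80), the defining macrophage surface marker, read 3.57 there, against 3.38 to 3.76 in the wild-type group. Marco and Siglec1 read 4.16 and 5.22 there, also within their wild-type ranges of 4.13 to 4.60 and 5.11 to 5.29. C1qa and C1qb read 5.824 and 5.46, just above their highest wild-type values of 5.819 and 5.37. The dendritic cell list, which shares Flt3, had a summed level of 8.33 to 9.52 in transgenic and 7.73 to 8.26 in wild-type samples (7 of 7 measured). Its other 6 genes differed by -0.13 to 0.14, and the median deviation over the 7 genes overlapped, at -0.02 to 0.08 in transgenic and -0.23 to 0.07 in wild-type samples. The mast cell and basophil list stood at 7.10 to 7.28 in transgenic and 7.15 to 7.34 in wild-type samples (7 of 7 measured). Of all marker genes, 1 passed the threshold: the platelet chemokine Pf4, with 6.61, 7.53, 7.37, 6.09 and 6.82 on the transgenic arrays, against 10.1, 9.75, 8.59, 9.25 and 9.36 on the wild-type arrays (limma adjusted p = 0.0112). The rest of the megakaryocyte list also had negative differences, and the list's median was -0.97. All 5 measured of its 6 genes were at an unadjusted limma p under 0.05, beside 2.9% of all tested probe sets with lower values. The summed level of that list was 8.48 to 8.99 in transgenic and 9.68 to 10.7 in wild-type samples, without overlap. In the erythroid list 4 of 7 measured genes were lower at an unadjusted limma p under 0.05, beside the same 2.9%, and 0 were called. Its summed level was 10.2 to 10.44 in transgenic and 10.48 to 10.9 in wild-type samples, so the groups only just did not overlap. By the mean and by the median over its genes they overlapped. The median deviation was -0.33 to 0.0045 in transgenic and -0.063 to 0.31 in wild-type samples. RMA values have no zero, so no marker can be said to be at 0. The part of progenitor or macrophage RNA in the values of transgenic array 5 was not tested.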

How the data were processed

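RNA of 10 aliquots of sorted cells was amplified, labelled with biotin and hybridised to Affymetrix Mouse Gene ST 1.0 arrays, per the labels' protocols. What the authors deposited is a single table, 35556 probe sets by array, of log2 values after RMA; affy and limma are also named, per the submitters' processing notes. Their versions and options: not given in the sources used here. The values were used as deposited, with groups from the sample titles. Platform annotation gave 21789 probe sets 1 gene symbol and 1621 several, leaving 12146 unnamed here. The 23410 named probe sets went into a group-only fit (lmFit, then eBayes) with limma 3.58.1 under R 4.3.3, two-sided, with Benjamini-Hochberg adjustment and a threshold of 0.05. The fit was tested on simulated arrays with independent noise and 200 changed probe sets. It called 40.3% of log2 changes of 0.5, 81.5% of changes of 1 and 99.1% of changes of 2. A gene that was not called is therefore not shown to be unchanged. Arrays have no read depth; their number limits the precision.

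The genes, lists and tests were chosen with earlier results of these data known. Named genes were the 3 of each group with the smallest p, those at an unadjusted p under 0.05, the 4 with the widest range, 4 further myeloid genes and any marker past the threshold. C1qa, C1qb, C1qc, Vcam1, Mrc1, Adgre1, Marco, Siglec1, Flt3, Cd48, Csf3r, Csf1r, Klrb1c, Nkg7, Cdh5 and Pecam1 were chosen after their values were seen. So were the HSC markers Procr, Mecom, Mllt3, Fgd5, Kit and Hlf, and the set of 7 mature granule genes from Ltf to Fcnb. Replicate numbers were not taken as pairs: the correlation of same-numbered deviations was -0.14 to 0.35, and no label ties a number to a batch. Alternatives were a replicate block, an array set block, each set alone, quantile normalization, median centring, a filter on dim probe sets, all probe sets, a floor, a trend, array weights, each array left out, a stricter threshold and an exact permutation test. Leaving out transgenic arrays 4 and 5 together was chosen after seeing the data.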

Additional observations from a re-analysis of the deposited data

Results flagged for a closer look

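Within groups of 5 arrays, Dixon's test at its 95% critical value picked out 4 of the 64 gene and group combinations, where chance gives about 1 in 20. Lyz2 on transgenic array 2 read 9.08, against 8.57 to 8.70 on the other transgenic arrays. Fcer1g on the same array read 7.37, against 6.74 to 6.91. Cybb on transgenic array 5 read 4.99, against 4.02 to 4.21 on the other transgenic arrays. Ly86, the partner of a Toll-like receptor homologue, read 4.12 on wild-type array 4, against 3.54 to 3.60 on the other wild-type arrays. The mean deviation of the 7 receptor and adaptor genes was -0.17 on wild-type array 5, against -0.02 to 0.01 on the other wild-type arrays. Mpo, Ctsg, S100a8 and S100a9 on transgenic array 5 were not picked out; transgenic array 4 lay between array 5 and the rest.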

How the results depend on the processing

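The count of granulocyte and monocyte genes called was 0 in all settings except without transgenic array 1, where Ncf4 passed, so leaving out 1 array gave 0 to 1. At an unadjusted p under 0.05 there were 5 of the 32, against 13 with the array set block, 13 within set B, 3 within set A, 7 with the replicate block, 6 without transgenic arrays 4 and 5, and 4 to 8 with 1 array left out. The array sets come from these same values, so the counts with them are a description. The replicate block gave 33 probe sets called over all genes and changed no member's call. It ended that of Gfi1 (adjusted p = 0.0947) and let Csf2rb2 pass (adjusted p = 0.0414). Over all genes 33 probe sets were called, against 15 with all probe sets of the table tested. With the floor there were 8, and at an adjusted p under 0.01 there were 7. The count was 91 with the array set block, 4 within set A, 6 within set B and 15 to 71 with 1 array left out. Fits within a set or with an array left out use fewer arrays, and the causes of these changes were not tested. The median difference of the 32 genes was 0.066 within set A, 0.050 without transgenic arrays 4 and 5, and 0.075 to 0.14 with 1 array left out. Signs turned only for genes that were not called in any of these fits. They were Cebpe (0.00077) after quantile normalization, Ms4a3 (-0.018), Lcn2 (-0.0040) and Tyrobp (-0.026) with array weights, and Camp (-0.0085) and Lcn2 (-0.013) with the array set block. Within set A they were Mpo (-0.019), Ms4a3 (-0.28), Camp (-0.034), Lcn2 (-0.087), Fcnb (-0.027), Cd33 (-0.11), Ly86 (0.056) and Tyrobp (-0.39), and within set B Ngp (-0.040) and Fcgr3 (0.0086). Without transgenic arrays 4 and 5 they were Cebpb (-0.017), Cebpe (0.022), Elane (-0.0099), Ctsg (-0.029), Ms4a3 (-0.20), S100a9 (-0.14), Cd33 (-0.046) and Tyrobp (-0.23). With 1 array left out, the lowest and highest differences were -0.0092 and 0.093 for Camp, -0.014 and 0.12 for Cd33, -0.088 and 0.027 for Cebpe, -0.0057 and 0.24 for Cybb, -0.041 and 0.075 for Lcn2, -0.012 and 0.038 for Mmp8, -0.072 and 0.10 for Ms4a3, and -0.11 and 0.18 for Tyrobp. All 32 genes have 1 probe set, so averaging probe sets could not change a value, and the filter on dim probe sets leaves 9 of them and no median over the list.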
